A study of Homo sapiens with 6 samples.

Results

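The Notch genes described here are the receptors NOTCH1, NOTCH2 and NOTCH3, the ligands JAG1, JAG2 and DLL1, and the nuclear targets HES1, HES4, HEY1 and HEY2, 10 of 27738 genes matched in the authors' deposited table. They were chosen by name, and each gene stands for its RefSeq accession with the highest base mean, the authors' mean over libraries of size-factor-normalized reads. RNA was sequenced from U87, an established human glioblastoma cell line, in 3 libraries of the cell type labelled EGFR+vIII TLR2 KO and 3 libraries of the cell type labelled EGFR+vIII. EGFR is the receptor of epidermal growth factor, vIII a deletion mutant of it that signals without ligand, and TLR2 is a Toll-like receptor of innate immunity; by the labels both groups carry EGFR and vIII and differ in the knockout. How the knockout was made, and whether it is 1 clone, is not given in the sources used here, nor is whether the libraries of a group are separate cultures, so that the p-values reflect a spread between libraries that may be technical.

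Notch is a receptor that a ligand on a neighbouring cell activates. ADAM proteases and then gamma-secretase cut the bound receptor, and the freed intracellular domain enters the nucleus, joins the DNA-binding protein RBPJ and a Mastermind coactivator, and turns on repressors of the HES and HEY families. In the nervous system the pathway is known for keeping neural progenitors undifferentiated and for promoting glial fates, and it is studied in glioblastoma for stem-like cells.

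The deposited data were 1 table of the authors' own comparison, with no value per library. Its base means sum to 11240272 normalized reads, the average per library, and library size factors derived from the smallest base means ranged from 0.928 to 1.07. All fold changes are EGFR+vIII TLR2 KO over EGFR+vIII, following the table's own naming. The targeted gene could not check this order, since TLR2 is listed at 0 in all 8 of its accessions in the authors' deposited table, and every direction below would turn round if it were the opposite. EGFR could not check the labels either: its highest base mean there is 1.32, with no adjusted p. Of 8 markers of glial and glioblastoma cells, the authors' deposited table lists VIM (base mean 126476), NES (540), SOX2 (69.0), OLIG2 (51.6) and CD44 (26.7) above its lowest tested base mean of 3.11, and GFAP, S100B and FABP7 at 0. Of the 5 tested, 3 passed in the authors' deposited table: SOX2 was lower (log2 fold change -2.45, adjusted p = 2.64e-14), NES higher (1.01, adjusted p = 1.15e-14) and VIM lower (-0.29, adjusted p = 0.00235). The part of these shifts in the Notch results was not tested. Of 21 markers of leucocytes, endothelium, neurons and epithelium, 9 are listed at 0, 6 had a test and 0 passed an adjusted p of 0.05 in the authors' deposited table, where CD68 and PECAM1 had an unadjusted p under 0.05. The 6 with a test were KDR (base mean 556), PECAM1 (159), TUBB3 (80.8), CD68 (42.6), EPCAM (22.4) and VWF (13.5). KDR thus had about as many reads as NES, and more than SOX2 and OLIG2, all genes with 1 accession. CD44 has 8 accessions, 6 of them listed at 0, so its base mean need not stand for its level. The same limit holds for markers listed at 0 in several accessions, such as GFAP (4) and PTPRC (4).

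Of the 10 Notch genes, 6 had an adjusted p, and 4 of these 6 passed 0.05 in the authors' deposited table. NOTCH3, HES1 and HEY2 fell and NOTCH2 rose, while NOTCH1 and JAG1 did not pass. JAG2, DLL1, HES4 and HEY1 are listed at 0. Over all 9372 tested genes of the authors' deposited table, 25.1% passed in either direction, 12.4% higher and 12.7% lower. The 6 Notch genes had a median base mean of 1017 against 65.6 over all tested genes, though HEY2 (28.9) lay below that value. Base means count reads and are not corrected for transcript length. Among the 4227 tested genes with a base mean of at least 100 in the authors' deposited table, 43.1% passed, so the 3 of 5 Notch genes in that range (60.0%) are near the background. The results below are therefore about single genes, not about the group.

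**Figure D1:**
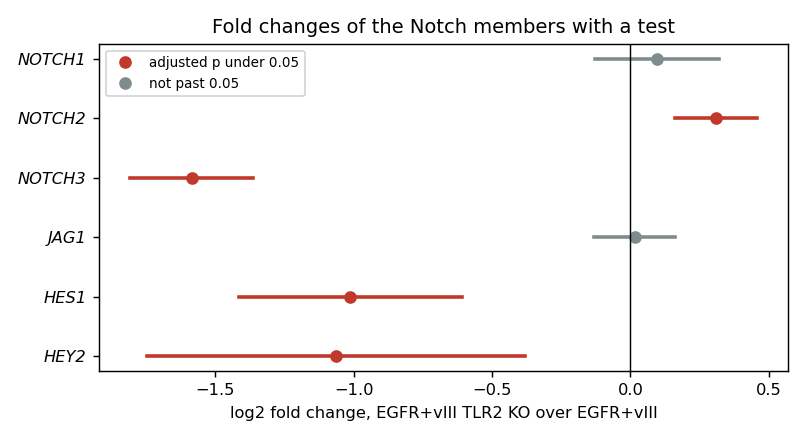
Log2 fold change of the 6 tested Notch genes, EGFR+vIII TLR2 KO over EGFR+vIII, from the authors' deposited table. Points are the deposited values, lines their 95% intervals from the deposited standard error, and colour marks an adjusted p under 0.05. NOTCH3 (-1.58), HEY2 (-1.06) and HES1 (-1.01) lie left of 0, NOTCH2 (0.31) lies right of it, and the intervals of NOTCH1 and JAG1 include 0.

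Among the receptors, NOTCH3 fell and NOTCH2 rose. NOTCH3 (NM_000435, chromosome 19, 15159038 to 15200995 on GRCh38), a receptor best known from smooth muscle and pericytes, had a base mean of 930 in the authors' deposited table. Its log2 fold change in the authors' deposited table was -1.58 (standard error 0.11, adjusted p = 2.67e-42), a level 3.0-fold lower in the knockout (95% interval 2.57 to 3.50). By p-value NOTCH3 ranked 81 of 10303 tested accessions, and by size it was the fall of rank 92 among 9372 tested genes. From the base mean and the fold change the group levels come to 465 normalized reads per library in EGFR+vIII TLR2 KO and 1395 in EGFR+vIII. Such implied levels are group means with no spread between libraries, and they understate differences of genes with few reads, because the deposited fold changes appear drawn towards 0 (largest SE 0.38 in the authors' deposited table). In bulk RNA, fewer cells with the transcript and less of it per cell cannot be told apart. NOTCH3 also passed a test against a change of 1.5-fold.

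NOTCH2 (NM_024408, chromosome 1, 119911553 to 120069662), the receptor with the most reads here, had a base mean of 15671 in the authors' deposited table, above 99.1% of tested accessions. Its log2 fold change in the authors' deposited table was 0.31 (standard error 0.08, adjusted p = 0.000323), a level 1.24-fold higher in the knockout (95% interval 1.12 to 1.37). The implied levels were 17348 normalized reads per library in EGFR+vIII TLR2 KO and 13995 in EGFR+vIII. This call was lost when Wald scores were divided by their central spread (adjusted p = 0.159) and in the test against a 1.5-fold change (adjusted p = 1). NOTCH2 shares near-identical sequence with the human NOTCH2NL genes, and all 6 accessions of NOTCH2NLA, NOTCH2NLB and NOTCH2NLC are listed at 0 in the authors' deposited table, so its value is uncertain where reads could come from either. A second NOTCH2 accession of the authors' deposited table, NM_001200001, has a base mean of 0.163.

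NOTCH1 (NM_017617, chromosome 9, 136494433 to 136546048), the receptor best known from T cell leukaemia and neural progenitors, had a base mean of 1104 in the authors' deposited table. Its log2 fold change of 0.10 (standard error 0.11, adjusted p = 0.642) in the authors' deposited table did not pass. The interval of the fold, 0.915 to 1.25, leaves room for small changes either way.

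Levels between genes were compared per kilobase of transcript, with lengths of the matching GENCODE transcripts. NOTCH2 had 1376 normalized reads per kilobase in the mean of all libraries, 11.6-fold the level of NOTCH1 (119) and 12.8-fold that of NOTCH3 (107). On the implied group levels per kilobase, NOTCH3 made up 3.16% of the sum of the 3 receptors in EGFR+vIII TLR2 KO and 10.7% in EGFR+vIII. The corresponding shares of NOTCH2 were 89.6% in EGFR+vIII TLR2 KO and 81.7% in EGFR+vIII, and those of NOTCH1 were 7.21% in EGFR+vIII TLR2 KO and 7.62% in EGFR+vIII. In both groups NOTCH2 was thus the most abundant of the 3 receptor mRNAs by these counts, and the share of NOTCH3 was the one that differed most in proportion. The levels and shares use all reads counted to NOTCH2, part of which could come from the NOTCH2NL genes.

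**Figure D2:**
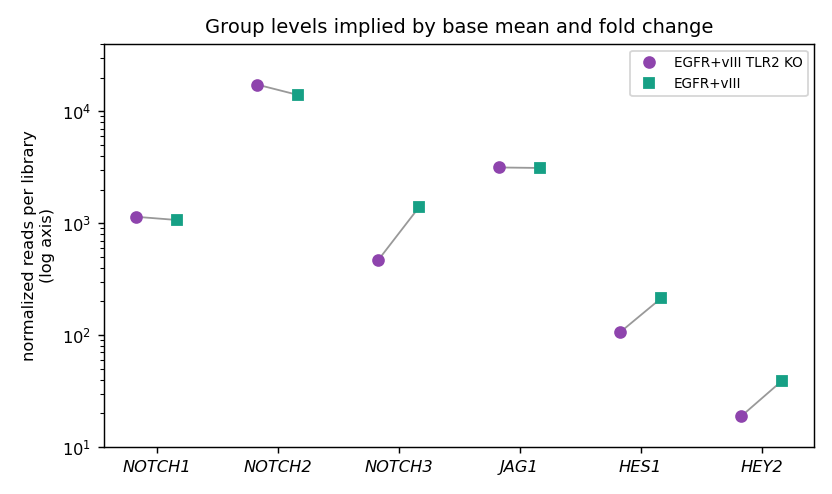
Normalized reads per library (log axis) implied for each group by the authors' base mean and fold change, for the 6 tested Notch genes. Circles are EGFR+vIII TLR2 KO and squares EGFR+vIII; no error can be drawn because no value per library is given. NOTCH3 stands at 465 in EGFR+vIII TLR2 KO against 1395 in EGFR+vIII, and JAG1 at 3149 in EGFR+vIII TLR2 KO against 3117 in EGFR+vIII.

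Among the ligands, JAG1 was the 1 member with reads. JAG1 (NM_000214, chromosome 20, 10637684 to 10673999), a membrane ligand of the Jagged type, had a base mean of 3133 in the authors' deposited table. Its log2 fold change was 0.01 (standard error 0.08, adjusted p = 0.931) in the authors' deposited table. The 95% interval of the fold was 0.912 to 1.12, and the implied levels were 3149 normalized reads per library in EGFR+vIII TLR2 KO and 3117 in EGFR+vIII. JAG1 had 527 normalized reads per kilobase. The ligands JAG2 (2 accessions, chromosome 14) and DLL1 (1 accession, chromosome 6) are listed at 0 in the authors' deposited table, so their levels were not measurable there.

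Both targets with a test fell. HES1 (NM_005524, chromosome 3, 194136148 to 194138732), a repressor that keeps neural progenitors from differentiating, had a base mean of 160 in the authors' deposited table, or 957 normalized reads over all 6 libraries. Its log2 fold change in the authors' deposited table was -1.01 (standard error 0.21, adjusted p = 9.68e-06), a level 2.02-fold lower in the knockout (95% interval 1.52 to 2.67). The implied levels were 106 normalized reads per library in EGFR+vIII TLR2 KO and 213 in EGFR+vIII. The call on HES1 was lost with scaled Wald scores (adjusted p = 0.0563) and in the test against a 1.5-fold change (adjusted p = 0.635).

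HEY2 (NM_012259, chromosome 6, 125749632 to 125761269), a related repressor known from heart and vessel development, had a base mean of 28.9 in the authors' deposited table, or 174 normalized reads over all libraries. Its log2 fold change in the authors' deposited table was -1.06 (standard error 0.35, adjusted p = 0.0126), a level 2.09-fold lower in the knockout with a wide 95% interval of 1.30 to 3.35. The implied levels were 18.7 normalized reads per library in EGFR+vIII TLR2 KO and 39.1 in EGFR+vIII. Few reads stand behind this value, and its call was lost at a threshold of 0.01, with scaled Wald scores (adjusted p = 0.451) and in the test against a 1.5-fold change (adjusted p = 1). Per kilobase of transcript HES1 (101 normalized reads) was 9.36-fold as abundant as HEY2 (10.8).

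The bases just before the start of the 3 genes that fell are shown because RBPJ, the DNA-binding partner of the Notch intracellular domain, is known to act at target promoters. They are the 250 bases before the RefSeq start on GRCh38.p14, chr3:194135898-194136147 (plus strand) for HES1, chr6:125749382-125749631 (plus strand) for HEY2 and chr19:15200996-15201245 (minus strand) for NOTCH3, with the RBPJ core TGGGAA on either strand in capitals.
HES1: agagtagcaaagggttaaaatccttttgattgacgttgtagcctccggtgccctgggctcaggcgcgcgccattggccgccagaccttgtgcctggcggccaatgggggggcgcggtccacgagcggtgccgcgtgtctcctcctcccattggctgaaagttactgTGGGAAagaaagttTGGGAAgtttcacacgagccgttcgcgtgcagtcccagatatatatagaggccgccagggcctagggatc
HEY2: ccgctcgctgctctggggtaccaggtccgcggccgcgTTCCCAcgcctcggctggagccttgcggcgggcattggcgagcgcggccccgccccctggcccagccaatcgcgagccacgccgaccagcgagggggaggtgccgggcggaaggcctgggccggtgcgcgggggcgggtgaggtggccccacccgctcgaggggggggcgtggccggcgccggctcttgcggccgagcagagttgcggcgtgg
NOTCH3: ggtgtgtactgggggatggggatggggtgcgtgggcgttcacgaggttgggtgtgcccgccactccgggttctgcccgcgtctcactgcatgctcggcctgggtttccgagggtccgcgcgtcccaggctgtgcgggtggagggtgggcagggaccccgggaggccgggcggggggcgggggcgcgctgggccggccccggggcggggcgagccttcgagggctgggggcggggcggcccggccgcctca
The HES1 window holds 2 copies of the core on the gene's strand, the first from 84 to 79 and the second from 70 to 65 bases before the start. The first copy is part of the longer form GTGGGAA, which overlaps it. The HEY2 window holds 1 copy, on the other strand, from 213 to 208 bases before the start, also within the longer form. The core is not limited to genes that fell: the window of HES4, which is listed at 0, holds 1 copy, also within the longer form. No copy of these letters lies in the windows of NOTCH3, NOTCH1, NOTCH2, JAG1 and JAG2. DLL1 and HEY1 had no window to search. Over 27305 promoters of the same length, 21.1% hold the core at least once, 2.92% hold it 2 or more times and 5.46% hold the longer form. A match is a description of the letters and shows neither binding nor a cause.

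HES4 (2 accessions, chromosome 1), a human relative of HES1, and HEY1 (3 accessions, chromosome 8), a close relative of HEY2, are listed at 0 in the authors' deposited table. A listing at 0 need not stand for silence of the gene. Where a gene has several accessions, a low base mean need not stand for low expression either. GAPDH, an enzyme of glycolysis in all cells, reaches a base mean of only 6.19 among its 6 accessions in the authors' deposited table. Of protein-coding genes with 1 accession, 30.0% are listed at 0 (2380 of 7927, Wilson 95% interval 29.0 to 31.0), against 43.4% of those with 2 (1773 of 4081, interval 41.9 to 45.0) and 46.8% of those with 3 (1186 of 2532, interval 44.9 to 48.8). The share is 48.2% with 4 to 9 and 43.1% with 10 or more, so it does not rise steadily. JAG2, HES4 and HEY1 are in the classes with several accessions, and the 5 Notch genes with 1 accession and reads are NOTCH1, NOTCH3, JAG1, HES1 and HEY2. DLL1 has 1 accession, and its span overlaps that of FAM120B, which is also listed at 0. Why these 4 genes are at 0 was not tested.

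**Figure D3:**
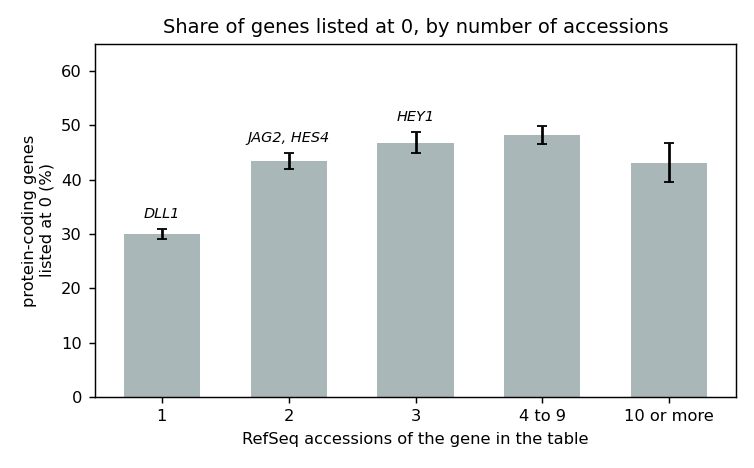
Percentage of protein-coding genes that the authors' deposited table lists at 0, by the number of RefSeq accessions of the gene; bars start at 0 and error bars are Wilson 95% intervals. The share is 30.0% with 1 accession (the class of DLL1), 43.4% with 2 (JAG2 and HES4) and 46.8% with 3 (HEY1). It is 48.2% with 4 to 9 and 43.1% with 10 or more.

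Around these 10 genes, 86 further genes of the pathway were listed by role. Of these, 40 had an adjusted p, and 14 of the 40 passed 0.05 in the authors' deposited table, 5 higher and 9 lower (35.0%, against 25.1% of all tested genes). With a base mean of at least 100, 13 of 25 passed (52.0%, against 43.1% of tested genes in that range). The median log2 fold change of the 40 was -0.05, beside 0.02 over all tested genes. The 40 tested genes therefore had changes in both directions around a median near 0. Of the other listed genes, 30 are listed at 0, 15 had no adjusted p and 1 had no accession. The pathway as a whole was thus not measured.

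**Figure D4:**
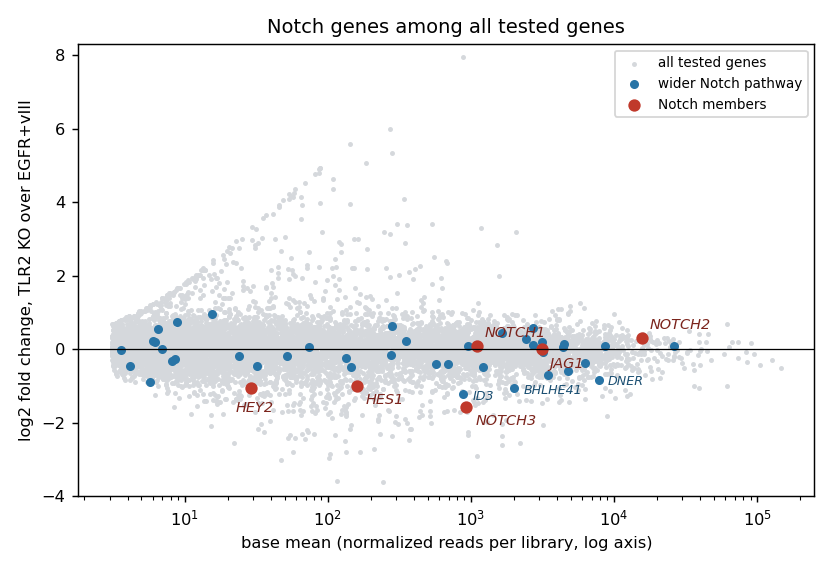
Log2 fold change (EGFR+vIII TLR2 KO over EGFR+vIII) against base mean (log axis) for the 9372 tested genes of the authors' deposited table, in grey, with the 6 Notch genes in red and 40 further pathway genes in blue. NOTCH3, HES1 and HEY2 lie among the lower genes at base means of 930, 160 and 28.9, and NOTCH2 lies near the right edge at 15671.

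Of 6 other receptors and ligands, DNER had reads and the other 5, NOTCH4, DLL3, DLL4, DLK1 and DLK2, are listed at 0. DNER, a membrane protein of neurons described as an atypical Notch ligand, had a base mean of 7864 in the authors' deposited table and fell by 0.83 (standard error 0.08, adjusted p = 8.9e-25) on the log2 scale. The implied levels of DNER were 5651 normalized reads per library in EGFR+vIII TLR2 KO and 10076 in EGFR+vIII. Per kilobase DNER had 2412 normalized reads, 4.57-fold the level of JAG1, and it also passed the test against a 1.5-fold change.

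Of 9 other HES and HEY genes, feedback targets and basic helix-loop-helix relatives, 3 had a test and 2 fell. They were the relatives BHLHE41 and BHLHE40, repressors known from the circadian clock and the hypoxia response, and no gene of the HES or HEY families in this list was among them. The call on BHLHE40 was lost in the test against a 1.5-fold change. BHLHE41 had a base mean of 2012 and a log2 fold change of -1.07 (standard error 0.09, adjusted p = 1.36e-31), and BHLHE40 had a base mean of 3443 and a log2 fold change of -0.71 (standard error 0.08, adjusted p = 1.11e-18), both in the authors' deposited table. HES2 (base mean 6.49) showed a log2 fold change of 0.55 (standard error 0.37, adjusted p = 0.319) in the authors' deposited table. HES5, HEYL and NRARP, which are widely used readouts of Notch activity, are listed at 0 with 1 accession each, and HES3, HES6 and HES7 are also listed at 0. Among HES and HEY genes the ones measured were thus HES1 and HEY2, with HES2 near the lowest tested level.

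The genes that mature and cut the receptor showed 1 call in each direction. Of 3 tested genes of maturation and glycosylation, RFNG, a Fringe enzyme that adds sugar to the receptor, fell by 0.42 (standard error 0.14, adjusted p = 0.0153) in log2 units of the authors' deposited table. The call on RFNG was lost at a threshold of 0.01, with scaled Wald scores (adjusted p = 0.475) and in the test against a 1.5-fold change. The fucosyltransferase POFUT1 (base mean 8675) showed a log2 fold change of 0.09 (standard error 0.08, adjusted p = 0.479) in the authors' deposited table. Of 4 tested genes of receptor cleavage, ADAM17 rose by 0.28 (standard error 0.08, adjusted p = 0.00413) on that scale in the authors' deposited table. The call on ADAM17 was lost with scaled Wald scores (adjusted p = 0.328) and in the test against a 1.5-fold change. The related protease ADAM10 showed a log2 fold change of -0.49 (standard error 0.21, adjusted p = 0.0829), and it passed in the setting restricted to base means of 100 or more (adjusted p = 0.0465). It did not pass with no filter on low values (adjusted p = 0.146), with scaled Wald scores (0.723) or in the test against a 1.5-fold change. Of the gamma-secretase genes, APH1B (base mean 7.01, log2 fold change 0.00, standard error 0.37) and PSENEN (base mean 3.61, log2 fold change -0.03, standard error 0.32) had few reads in the authors' deposited table. PSEN2, NCSTN and APH1A are listed at 0.

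In the nucleus, RBPJ (base mean 74.0) showed a log2 fold change of 0.07 (standard error 0.27, adjusted p = 0.909) in the authors' deposited table. Of 7 tested genes of the nuclear complex and its coactivators, 1 rose and 2 fell. The Mastermind coactivators went both ways in the authors' deposited table, with MAML1 higher by 0.44 (standard error 0.09, adjusted p = 9.95e-06) and MAML2 lower at -0.40 (standard error 0.14, adjusted p = 0.0178) on the log2 scale. MAML3 showed a log2 fold change of -0.25 (standard error 0.21, adjusted p = 0.481) in the authors' deposited table. The acetyltransferase KAT2B fell by 0.48 (standard error 0.10, adjusted p = 1.44e-05) in log2 units of the authors' deposited table. These 3 calls were lost in the test against a 1.5-fold change and with scaled Wald scores (adjusted p = 0.0566 for MAML1, 0.492 for MAML2 and 0.0631 for KAT2B), and that on MAML2 also at a threshold of 0.01. The corepressors had 6 tested members of 14, and 0 passed by the DESeq2 adjusted p of the authors' deposited table. SPEN, which represses RBPJ targets when Notch is off, was the 1 of these 6 with an unadjusted p under 0.05 (log2 fold change 0.20, standard error 0.08, adjusted p = 0.0525 in the authors' deposited table). It passed in 3 other settings (adjusted p 0.0287 to 0.0491), 1 of them chosen after seeing the data. It did not pass with no filter on low values (adjusted p = 0.0922), with the median fold change subtracted (0.0891), with scaled Wald scores (0.651) or in the test against a 1.5-fold change.

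Endocytosis and turnover genes had 8 tested members, of which 1 rose and 2 fell. MIB1, the ubiquitin ligase that acts on ligands in the sending cell, fell by 0.59 (standard error 0.08, adjusted p = 1.04e-11) in log2 units of the authors' deposited table. SEL1L, an adaptor of protein degradation in the endoplasmic reticulum, fell by 0.38 (standard error 0.09, adjusted p = 0.000198) in log2 units of the authors' deposited table. DTX3L, a ubiquitin ligase of the Deltex family that is also induced by interferon, rose by 0.57 (standard error 0.09, adjusted p = 4.23e-09) on the same scale of the authors' deposited table. The 3 calls were lost in the test against a 1.5-fold change, and that on SEL1L also with scaled Wald scores (adjusted p = 0.138).

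Of 5 tested basic helix-loop-helix partners and opposed factors, 3 passed, all of them among the 4 tested ID genes, which encode inhibitors that bind such factors. ID3 (base mean 886) fell by 1.24 (standard error 0.11, adjusted p = 3.71e-26), while ID2 (base mean 281) rose by 0.62 (standard error 0.17, adjusted p = 0.0014) and ID4 (base mean 15.6) rose by 0.96 (standard error 0.38, adjusted p = 0.0469), in log2 units of the authors' deposited table. The call on ID2 was lost with scaled Wald scores (adjusted p = 0.241) and in the test against a 1.5-fold change, and that on ID4 in those settings (0.633 with scaled scores), at a threshold of 0.01, with no filter on low values (0.0825) and with the median fold change subtracted (0.0532). ID1 (base mean 8.18) showed a log2 fold change of -0.32 (standard error 0.37, adjusted p = 0.64) in the authors' deposited table. It has 2 accessions, 1 of them listed at 0. OLIG2, a transcription factor of the oligodendrocyte lineage, had a log2 fold change of -0.18 (standard error 0.29, adjusted p = 0.745) in the authors' deposited table. Of 6 target genes outside the HES and HEY families, 3 had a test and 0 passed by the DESeq2 adjusted p of the authors' deposited table, with 1 of the 3, CDKN1A, at an unadjusted p under 0.05. CCND1, a driver of the cell cycle (base mean 26139), showed a log2 fold change of 0.09 (standard error 0.07, adjusted p = 0.399) in the authors' deposited table. There SOX9, a glial transcription factor (base mean 2710), showed one of 0.11 (standard error 0.08, adjusted p = 0.388). The cell cycle inhibitor CDKN1A (base mean 5.77) showed one of -0.89 (standard error 0.36, adjusted p = 0.0593). CDKN1A has 5 accessions, 4 of them listed at 0, so its value rests on few reads of 1 accession.

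**Figure D5:**
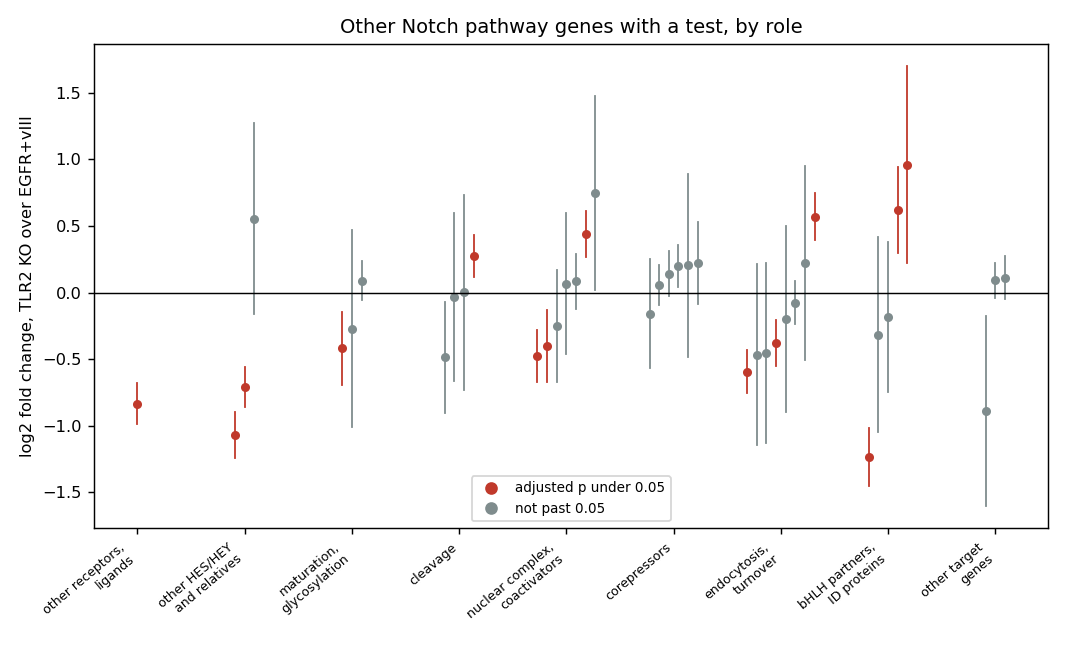
Log2 fold change, EGFR+vIII TLR2 KO over EGFR+vIII, of the 40 further pathway genes with a test in the authors' deposited table, grouped by role. Points are deposited values, lines their 95% intervals, and colour marks an adjusted p under 0.05. The 3 lowest genes are ID3 (-1.24), BHLHE41 (-1.07) and CDKN1A (-0.89), of which CDKN1A had few reads (base mean 5.77) and did not pass. None of the 6 corepressors passed.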

How the data were processed

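RNA of U87 cells was compared between 3 EGFR+vIII TLR2 KO and 3 EGFR+vIII libraries, grouped by the cell type in the labels. The submitters' processing notes name STAR, DESeq2 and hg38; for versions, counter, strandedness and annotation, nothing is given in the sources used here. Per the file headers, the authors deposited a base mean (a signal of mean normalized reads), a log2 fold change with its SE, a Wald score (fold change over SE; largest gap 5.39e-07) and an adjusted p (Benjamini-Hochberg, with a largest gap of 4.48e-07). The p-values deposited by the authors come from their Wald test, per the file headers. Depth per library is not stated. Of 67933 accessions, 10303 had an adjusted p; 98.8% matched a gene of RefSeq GRCh38.p14, the build of hg38. Each gene was represented by its accession of highest base mean.

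With no count per library, the authors' deposited test (adjusted p under 0.05) was used as the design foresaw. Intervals (95%), implied group levels and alternatives were computed in Python 3.11.15 with SciPy 1.17.1, and the functions were tested on simulated data. Implied levels solve base mean and fold change for 2 groups of equal size. Transcript lengths come from GENCODE release 29. Promoters come from RefSeq, and 8 of the 10 genes matched there; no protein sequence was used here. Named genes were the 10 genes, other pathway genes past the threshold and a fixed set of core genes; POFUT1, MAML3, HES2, HES3, HES6, HES7, DLK1, DLK2, SPEN, ID1, CREBBP, OLIG2, CCND1, SOX9 and CDKN1A were added after their values were seen. Some genes of the lists are not reported here. The genes and lists were chosen with earlier results of these data known.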

Additional observations from a re-analysis of the deposited data

How the results depend on the processing

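The 4 calls among the 6 tested Notch genes numbered 3 or 4 under 7 of 9 alternatives. They fell to 1, NOTCH3, with Wald scores divided by their central spread and to 1, again NOTCH3, in the test against a 1.5-fold change. The 14 calls of the wider pathway numbered 11 to 15 under the same 7 alternatives, 6 with scaled scores and 3 in the 1.5-fold test (BHLHE41, DNER and ID3). Most alternatives reuse the deposited fold changes of the same accessions, so no sign could turn there. A value could differ only with the median fold change subtracted and with the accession of smallest p. Among the 46 tested genes no called fold change turned its sign in those settings, but called values shifted little in them, so this is no sign of robustness. Of genes without a call, JAG1 and APH1B turned sign with the median fold change subtracted, and RBPJ and NCOR1 did with the accession of smallest p. The setting of genes with 1 accession was chosen after seeing the data; it leaves out NOTCH2 and keeps NOTCH3, HES1 and HEY2 called. No paired analysis was possible because the table gives no values per library, and leaving out single libraries was not run for the same reason. Few reads limit HEY2, whose base mean of 28.9 is the lowest of the tested Notch genes, and tested pathway genes below it, down to PSENEN at 3.61.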

Other observations

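RBPJ has 5 accessions in the authors' deposited table. The second most abundant (base mean 23.8) showed a log2 fold change of -0.24 (standard error 0.35, adjusted p = 0.718), so neither of the 2 tested RBPJ accessions passed. POFUT1 has a second tested accession with a base mean of 6.10 and a log2 fold change of 0.38 (standard error 0.36, adjusted p = 0.541) in the authors' deposited table. The coactivator CREBBP (base mean 8.90) showed a log2 fold change of 0.75 (standard error 0.37, adjusted p = 0.143) in the authors' deposited table.

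The N box CACNAG, a sequence that HES proteins are known to bind, occurs 3 times on either strand in the 250 bases before the start of HES1, itself described as a target of its own protein. It occurs 1 time in the NOTCH3 window and in none of the windows of NOTCH1, NOTCH2, JAG1, JAG2, HES4 and HEY2. Of 27305 promoters, 32.0% hold it at least once and 6.28% hold it 2 or more times. The HES4 window holds 1 copy of the RBPJ core TGGGAA, from 76 to 71 bases before the start.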
